A study of Mus musculus with 11 samples.

Results

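A set of 10 genes of nicotinamide adenine dinucleotide (NAD) metabolism was followed in ovaries of wild-type mice at 3 ages. They are Cd38 and Bst1, which break NAD down, Nampt, Nmnat1 and Nmnat3, which rebuild it, Parp1, Sirt1, Sirt3 and Sirt6, which consume it in protein modification, and Nnmt, which clears nicotinamide by methylation. The 10 were chosen by symbol from the 54232 genes of the deposited count table, each symbol matched 1 row, and all 10 passed the filter on low counts. RNA of whole ovaries was sequenced at 2 months (4 libraries), 18 months (4 libraries) and 24 months (3 libraries) of age, and the study set young, old and post-reproductive ovaries side by side. The library names carry 8 weeks for the youngest and 22 months for the oldest group. Neither strain, treatment nor the number of animals per library is given in the labels, and the p-values therefore speak only of the spread among the samples at hand.

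NAD is the electron carrier of central metabolism and also a substrate that several enzyme families cut, releasing nicotinamide. Cells recover nicotinamide through a salvage route in which Nampt makes nicotinamide mononucleotide (NMN) and the Nmnat enzymes turn NMN into NAD, and they can also make NAD from nicotinic acid or from tryptophan. CD38, a surface enzyme best known from immune cells, hydrolyses NAD and its precursor NMN, and in mice its level in several tissues is known to be higher with age. In the ovary, NAD supply has been studied mainly for its bearing on oocyte quality.

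Total counts were 26061630 to 33407509 per library, except 5231724 in 18 month replicate 3 and 8892915 in 18 month replicate 4. The counts of these 2 libraries differed by about counting noise (chi-square per gene 1.10, against 28.7 for the next pair), so they were summed and used as 1 sample, which gives 4, 3 and 3 samples. The ovarian identity of the tissue showed in its markers. Oocyte markers summed to 236 to 556 at 2 months as counts scaled to library size (CPM), 30.2 to 66.2 CPM at 18 months and 6.46 to 41.8 CPM at 24 months, and granulosa cell markers to 2891 to 3938, 1569 to 2595 and 1412 to 3208 CPM at these ages. Oviduct epithelium markers summed to 9.83 to 20.1 CPM at 2 months, 15.4 to 74.5 CPM at 18 months and 27.7, 88.9 and 874 CPM at 24 months, the last in 24 month replicate 3. Differences in whole tissue cannot separate fewer cells of a type from less RNA per cell.

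The start-site regions of the most abundant members, Nampt and Parp1, and of Sirt1 are shown because they contrast in base composition with that of Cd38. RefSeq windows (GRCm38.p6) were found for 8 of the 10 members, and the 250 bases before the start site are given 5' to 3', with GC boxes (GGGCGG on either strand, overlapping sites counted separately) in capitals. Nampt lies at chr12:32820085-32820334 on the plus strand, Parp1 at chr1:180568641-180568890 on the plus strand and Sirt1 at chr10:63339036-63339285 on the minus strand.
Nampt: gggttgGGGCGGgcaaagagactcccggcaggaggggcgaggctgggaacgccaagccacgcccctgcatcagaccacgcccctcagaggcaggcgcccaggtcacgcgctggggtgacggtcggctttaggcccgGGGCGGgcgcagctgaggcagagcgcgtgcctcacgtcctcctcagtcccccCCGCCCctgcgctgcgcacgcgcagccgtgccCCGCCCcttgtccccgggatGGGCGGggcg
Parp1: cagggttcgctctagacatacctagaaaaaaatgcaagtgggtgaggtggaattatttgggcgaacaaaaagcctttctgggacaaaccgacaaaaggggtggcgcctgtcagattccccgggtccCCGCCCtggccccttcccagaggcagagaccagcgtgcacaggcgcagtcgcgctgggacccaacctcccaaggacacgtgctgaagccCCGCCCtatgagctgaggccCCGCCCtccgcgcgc
Sirt1: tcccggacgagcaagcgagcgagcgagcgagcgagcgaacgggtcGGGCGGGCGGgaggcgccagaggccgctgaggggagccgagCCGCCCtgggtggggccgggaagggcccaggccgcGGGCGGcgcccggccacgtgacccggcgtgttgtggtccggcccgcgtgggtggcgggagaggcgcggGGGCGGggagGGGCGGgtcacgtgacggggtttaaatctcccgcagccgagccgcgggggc
These windows held 5 GC boxes in Nampt, 3 in Parp1 and 6 in Sirt1, and 32.7% of the 32851 promoter windows of the RefSeq table held at least 1. They had 27, 16 and 39 CpG dinucleotides, against a median of 6 over all windows. The Cd38 window, at chr5:43868559-43868808 on the plus strand, had 1 CpG, no GC box and 48.8% GC. The Nmnat3 window, not shown, had 45.6% GC, 9 CpG and 2 GC boxes, so that of Cd38 was not the lowest in GC among members. All 250 bases of the Cd38 window lie in a UTR in the GENCODE M21 annotation, and it is described here without its letters. The count table starts the gene at 43868553, so there this window is not sequence before the gene. The same holds for the Nampt and Sirt1 windows. In the count table Nampt starts at 32819545 on the plus strand and Sirt1 at 63381704 on the minus strand, so both windows lie inside the gene. Parp1 starts there at 180568924, after the end of its window. An E-box (CACGTG) was found in 6.02% of all windows, at 2 sites in Sirt1 and 1 in Parp1. The NF-kB motif, found in 3.90% of all windows, was present in 1 of the 2 Sirt6 windows and in no other member window.

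Across the set, Cd38 and Bst1 were higher in older ovaries, each in 1 comparison with 2 months, and no member was called lower at any age. At 18 months against 2 months only Bst1 passed (quasi-likelihood test of edgeR, p adjusted by Benjamini-Hochberg over 20331 genes), 1 of 10 members, where 11.6% of all genes passed, 6.04% as higher and 5.51% as lower. At 24 months against 2 months only Cd38 passed, 1 of 10 members, where 35% of all genes passed, 19.2% as higher and 15.8% as lower. Both comparisons use the same 2 month samples. Between 24 and 18 months no member passed, where 0.00492% of all genes did (1 gene), 6.73% lay above and 5.36% below without overlap, and 2108 of 20331 genes had an unadjusted p under 0.05. Members whose samples did not overlap between ages numbered 5 at 18 against 2 months, 2 at 24 against 2 months and 1 at 24 against 18 months, where 27.3%, 42.1% and 12.1% of all genes did not overlap. The shares of members called were no higher than those of all genes in the comparisons with 2 months. The median log2 fold change of the 10 members was 0.24, 0.12 and 0.020 in these comparisons, against 0.0073, 0.033 and 0.026 over all genes.

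**Figure D1:**
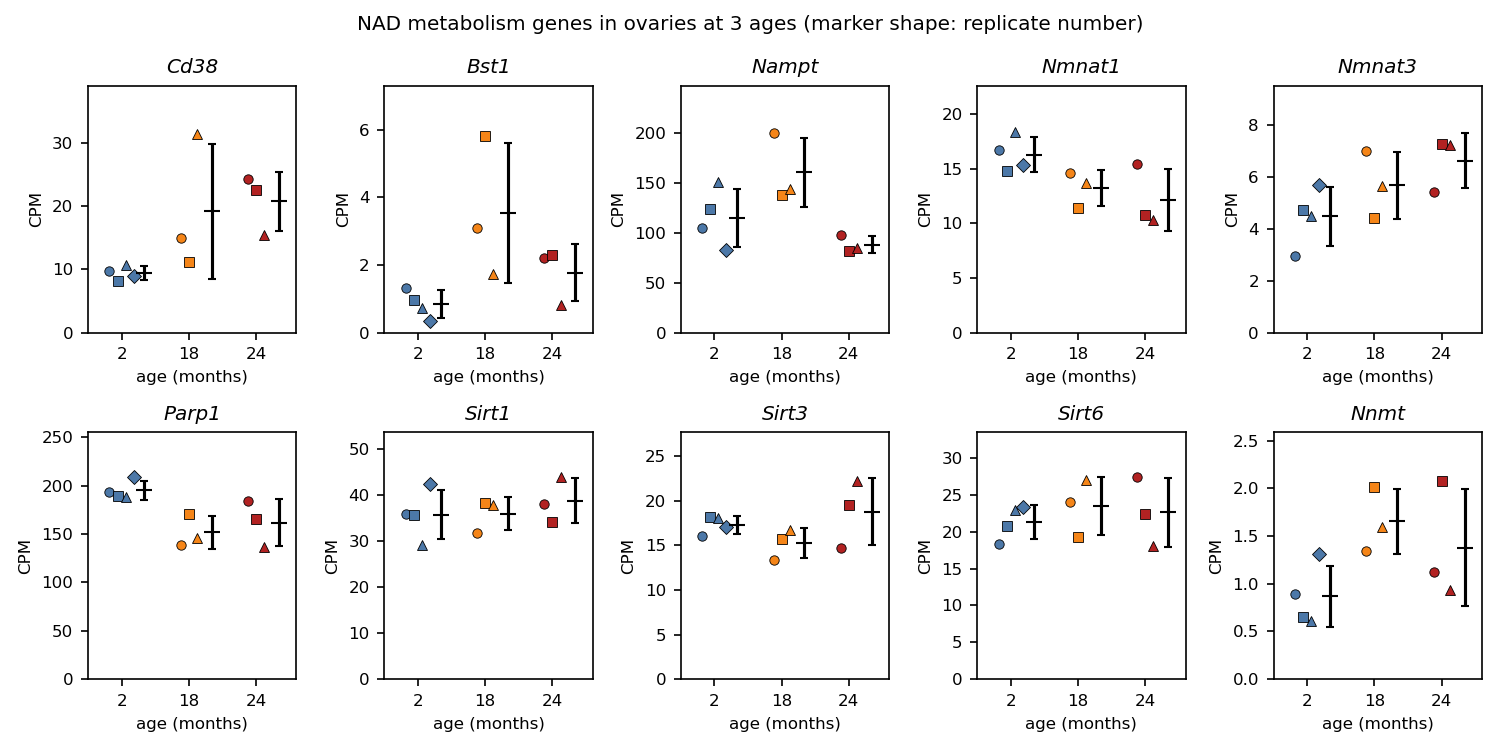
Level of each gene in CPM (vertical axis, from 0) in every sample at 2, 18 and 24 months (horizontal axis); marker shapes give the replicate number, and the bars beside each group give its mean and SD. Cd38 sits between 8.14 and 10.7 CPM at 2 months and between 15.4 and 24.2 CPM at 24 months, while the sirtuins overlap at all 3 ages.

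Cd38 (ENSMUSG00000029084) and Bst1 (ENSMUSG00000029082) are neighbours on the plus strand of chromosome 5 in mm10, at 43868553 to 43912375 and 43818885 to 43843986, with 24566 bases between them. Both encode surface enzymes of the ADP-ribosyl cyclase family, and Bst1 is also known as CD157. Cd38 was at 9.69, 8.14, 10.7 and 8.98 CPM in the 2 month samples, 14.95, 11.1 and 31.3 CPM in the 18 month samples and 24.2, 22.6 and 15.4 CPM in the 24 month samples. Every older sample lay above every 2 month sample, and the 18 month samples spanned the whole range of the 24 month samples and beyond. The mean was 20.7 ± 4.68 CPM at 24 months and 9.37 ± 1.08 CPM at 2 months (SD, n = 3 and 4). Cd38 rose 2.21-fold between these ages, a log2 fold change of 1.15 (SE 0.318, 95% interval 0.43 to 1.86, edgeR adjusted p = 0.0221).

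At 18 months the mean of Cd38 was 19.1 ± 10.7 CPM, against 9.37 ± 1.08 CPM at 2 months (SD, n = 3 and 4). The log2 fold change was 1.02 (SE 0.319, 95% interval 0.31 to 1.74) and missed the threshold (edgeR adjusted p = 0.0659), although the groups did not overlap. The highest Cd38 value of all samples was the summed 18 month sample. Its 2 libraries gave 196 and 276 Cd38 counts, or 37.5 and 31.0 CPM of the unscaled library total. Without that sample the log2 fold change at 18 months was 0.48 (edgeR adjusted p = 0.239), and without 18 month replicate 2 it was 1.30 (edgeR adjusted p = 0.048). Keeping all 11 libraries apart or using DESeq2 also gave a call (adjusted p = 0.0252 and 0.0186). Between 24 and 18 months the log2 fold change was 0.12 (SE 0.341, 95% interval -0.64 to 0.89, edgeR adjusted p = 0.912), and leaving out the summed sample gave 0.67.

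The call of Cd38 at 24 months stood close to the threshold. It was lost without 2 month replicate 1, 2 or 4 or 24 month replicate 1 or 2, with log2 fold changes of 1.04 to 1.14 and edgeR adjusted p values of 0.051 to 0.0641. It held without 24 month replicate 3, the sample with the most oviduct marker RNA (log2 fold change 1.34, edgeR adjusted p = 0.0274).

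Bst1 had few counts, between 11 and 184 per library. It was at 1.31, 0.963, 0.731 and 0.335 CPM at 2 months, 3.08, 5.80 and 1.72 CPM at 18 months and 2.20, 2.305 and 0.814 CPM at 24 months. All 18 month samples lay above all 2 month samples, with 18 month replicate 2 the highest, and the 24 month samples overlapped both other groups. The mean was 3.54 ± 2.08 CPM at 18 months and 0.835 ± 0.4095 CPM at 2 months (SD, n = 3 and 4), a log2 fold change of 2.09 (SE 0.554, 95% interval 0.85 to 3.33, edgeR adjusted p = 0.0408). That call was lost without any one of the 2 month or 18 month samples or 24 month replicate 2, and without 18 month replicate 2 the log2 fold change was 1.53 (edgeR adjusted p = 0.147).

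At 24 months Bst1 differed from 2 months by a log2 fold change of 1.08 (edgeR adjusted p = 0.15, SE 0.553) and from 18 months by -1.01 (edgeR adjusted p = 0.566, SE 0.584). In 18 month replicate 2, where Bst1 was highest, surface epithelium markers summed to 932 CPM and smooth muscle markers to 1501 CPM. Stromal fibroblast markers summed to 5092 CPM and oviduct epithelium markers to 74.5 CPM there. All these sums were the highest of the 18 month samples. Macrophage markers at 522 CPM, T cell markers at 27.6 CPM and B and plasma cell markers at 194 CPM were the lowest of that age there. So were NK cell markers at 4.41 CPM and neutrophil markers at 5.27 CPM, while mast cell markers lay between the other samples. The part of these cells in the Bst1 value was not tested. Bst1 overlaps Fbxl5 on the other strand, which had 560 to 3904 counts per library. The strand setting of the counting is not given in the sources used here, so that reads of the overlap cannot be told apart.

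Markers of several cell types, immune and other, were called higher in the same comparisons with 2 months, where 6.04% of all genes were called higher at 18 months and 19.2% at 24 months. Of 10 macrophage markers, 8 were called higher at 18 months and 10 at 24 months against 2 months, and the list summed to 257 to 328 CPM at 2 months, 522 to 715.5 CPM at 18 months and 617 to 681 CPM at 24 months. Csf1r, the receptor for a macrophage growth factor, had a log2 fold change of 1.02 and 1.16 at these ages. Of 8 T cell markers, 5 and 8 were called higher, with sums of 8.83 to 12.6 CPM at 2 months, 27.6 to 38.3 CPM at 18 months and 19.85 to 54.5 CPM at 24 months. The median log2 fold change at 18 and 24 months was 1.06 and 1.13 for the macrophage list and 1.59 and 1.69 for the T cell list. Of 7 tested B and plasma cell markers, 1 and 3 were called higher, of 4 neutrophil markers 1 and 1, and of 6 NK cell markers 1 and 1. Of 4 tested mast cell markers none was called at 18 months and 4 at 24 months, with a median log2 fold change of 5.06 at 24 months. Their list summed to 0.311 to 4.62 CPM at 2 months and to 161, 2.28 and 71.3 CPM in 24 month replicates 1, 2 and 3. The sum of 24 month replicate 2 thus lay within the range of the 2 month samples, and no tested marker was above without overlap. No marker of these immune lists had a count of 0 in every sample of an age. Of 8 surface epithelium markers 6 and 6 were called higher (median log2 fold change 1.76 and 1.93), of 6 oviduct epithelium markers 1 and 6 (1.39 and 5.47), of 4 tested adipocyte markers 1 and 2 (3.15 and 3.64) and of 6 stromal fibroblast markers 2 and 3 (0.81 and 0.72).

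In the summed 18 month sample, which had the most Cd38, macrophage markers stood at 604 CPM and T cell markers at 32.5 CPM, each between the other two 18 month samples, while neutrophil markers stood at 11.5 CPM, the highest of all samples. In 24 month replicate 3 Cd38 was the lowest of its age at 15.4 CPM. Macrophage markers at 617 CPM and NK cell markers at 8.03 CPM were also the lowest of that age there. T cell markers at 54.5 CPM and B and plasma cell markers at 380 CPM were the highest of all samples. Neutrophil and mast cell markers lay between the other samples of that age. Xbp1 alone averaged 188 CPM at 2 months, most of the B and plasma cell sum there (median 194 CPM). The part of these cells in the Cd38 level was not tested.

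**Figure D2:**
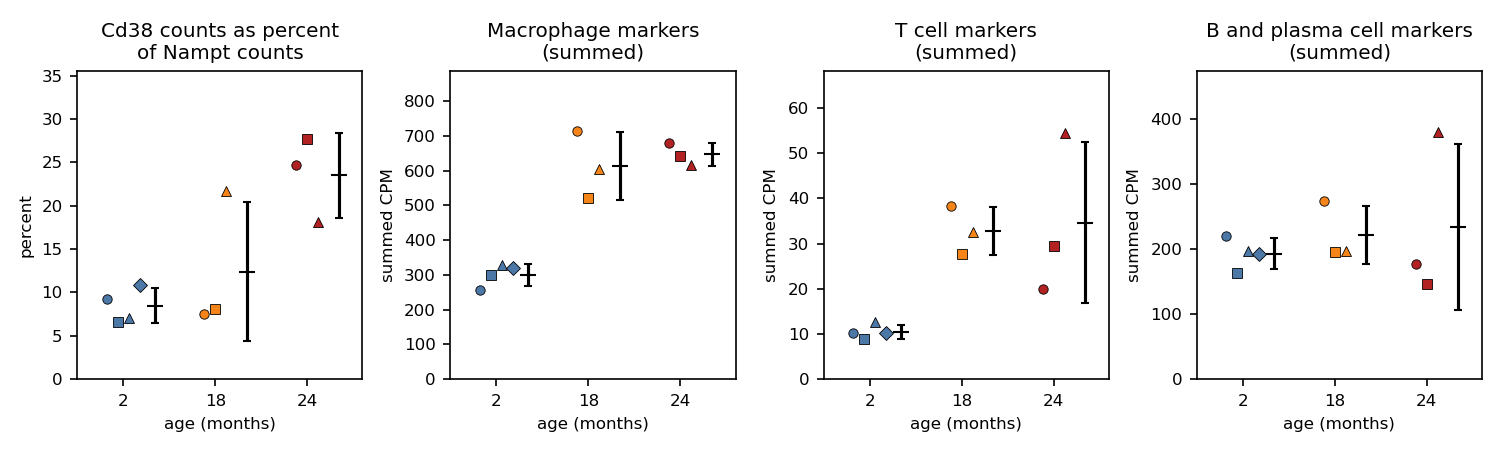
Left, Cd38 counts as a percentage of Nampt counts in the same sample, then the summed CPM of macrophage, T cell, and B and plasma cell markers, by age in months; points are samples (shape by replicate number) and bars are the mean and SD. The Cd38 to Nampt percentage lies between 6.59 and 10.9 at 2 months and between 18.1 and 27.7 at 24 months, and the 18 month samples are split between both levels.

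Nampt, the rate-limiting enzyme of NAD salvage (ENSMUSG00000020572, chromosome 12 at 32819545 to 32853349, plus strand), had its highest mean at 18 months. It was at 104.5, 123.5, 150.7 and 82.4 CPM at 2 months, 200.1, 138 and 144 CPM at 18 months and 98.2, 81.5 and 85.1 CPM at 24 months. All 24 month samples lay below all 18 month samples, and the 2 month samples overlapped both. Of all genes tested, 5.36% lay below without overlap in that comparison. The mean was 88.2 ± 8.77 CPM at 24 months and 161 ± 34.3 CPM at 18 months (SD, n = 3 each), a log2 fold change of -0.87 (SE 0.22, 95% interval -1.36 to -0.37). It ranked 156 of 20331 genes by p, yet missed the threshold (edgeR adjusted p = 0.3885), and passed with DESeq2 (adjusted p = 0.0347). Against 2 months the log2 fold change was 0.48 at 18 months (edgeR adjusted p = 0.149, SE 0.2035) and -0.39 at 24 months (edgeR adjusted p = 0.168, SE 0.206).

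Set against each other within a sample, where library scaling cancels, Cd38 counts were 9.27%, 6.59%, 7.085% and 10.9% of Nampt counts at 2 months, 7.47%, 8.08% and 21.7% at 18 months and 24.7%, 27.7% and 18.1% at 24 months. All 24 month samples exceeded all 2 month samples. At 18 months replicates 1 and 2 lay within the range of the 2 month samples, and the summed sample lay within that of the 24 month samples. This ratio was chosen after the values were seen and was not tested.

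The Nmnat enzymes act after Nampt, Nmnat1 in the nucleus and Nmnat3 in mitochondria. Nmnat1 (ENSMUSG00000028992, chromosome 4 at 149467572 to 149485202) was at 16.7, 14.8, 18.4 and 15.4 CPM at 2 months, 14.6, 11.4 and 13.7 CPM at 18 months and 15.45, 10.8 and 10.3 CPM at 24 months. The 18 month samples all lay below the 2 month samples in CPM, though not in TPM, and 1 of the 3 samples at 24 months did not. The log2 fold change against 2 months was -0.42 at 24 months (SE 0.175, 95% interval -0.81 to -0.03, edgeR adjusted p = 0.0863) and -0.30 at 18 months (edgeR adjusted p = 0.282, SE 0.175). The 24 month value passed with DESeq2 (adjusted p = 0.0489) and without 24 month replicate 1 (log2 fold change -0.61, edgeR adjusted p = 0.0177), and with library totals in place of TMM it was -0.24.

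Nmnat3 (ENSMUSG00000032456, chromosome 9 at 98287435 to 98420438) had between 40 and 255 counts per library. It was at 2.97, 4.72, 4.51 and 5.69 CPM at 2 months, 6.98, 4.41 and 5.63 CPM at 18 months and 5.41, 7.26 and 7.21 CPM at 24 months. All 3 ages overlapped. Its log2 fold change was 0.57 at 24 months against 2 months (SE 0.259, 95% interval -0.012 to 1.15, edgeR adjusted p = 0.113), with a sign opposite to that of Nmnat1.

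Parp1 (ENSMUSG00000026496, chromosome 1 at 180568924 to 180601254, plus strand), the main enzyme that builds poly-ADP-ribose chains at DNA breaks, was the most abundant member at 2 months. It was at 193.4, 189.5, 188.7 and 208.9 CPM at 2 months, 139, 171 and 146 CPM at 18 months and 184, 166 and 136 CPM at 24 months. Both older groups lay wholly below the 2 month samples in CPM, while in TPM they overlapped, at 109 to 140 TPM at 2 months, 89.7 to 118 TPM at 18 months and 105 to 130 TPM at 24 months. In the comparison of 18 with 2 months Parp1 and Nmnat1 were the 2 members below without overlap, where 13.7% of all genes were, and in that of 24 with 2 months Parp1 was the only one, where 20.4% of all genes were. The log2 fold change was -0.36 at 18 months (SE 0.122, 95% interval -0.63 to -0.09, edgeR adjusted p = 0.0823) and -0.27 at 24 months (SE 0.122, 95% interval -0.54 to 0.0026, edgeR adjusted p = 0.11). With library totals in place of TMM the 24 month value was -0.09. The 18 month value passed with all 11 libraries kept apart (edgeR adjusted p = 0.0353) and with DESeq2 (adjusted p = 0.0394).

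The sirtuins, NAD-dependent deacylases, varied little. Sirt1 (ENSMUSG00000020063, chromosome 10 at 63319005 to 63381704), a nuclear deacetylase, was at 35.8, 35.7, 29.2 and 42.4 CPM at 2 months, 31.8, 38.2 and 38.0 CPM at 18 months and 38.2, 34.3 and 44.0 CPM at 24 months. Sirt3 (ENSMUSG00000025486, chromosome 7 at 140863666 to 140882309), the main deacetylase of mitochondria, was at 16, 18.15, 18.0 and 17.05 CPM, at 13.4, 15.7 and 16.7 CPM and at 14.7, 19.5 and 22.2 CPM at these ages. Sirt6 (ENSMUSG00000034748, chromosome 10 at 81621785 to 81627797), a chromatin deacetylase with a part in DNA repair, was at 18.3, 20.8, 22.95 and 23.35 CPM, at 24.0, 19.4 and 27.1 CPM and at 27.4, 22.45 and 18.1 CPM. The ages overlapped for all 3 genes.

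At 24 months against 2 months the 95% intervals of the log2 fold change were -0.20 to 0.43 for Sirt1, -0.22 to 0.46 for Sirt3 and -0.30 to 0.47 for Sirt6 (edgeR adjusted p = 0.546, 0.5625 and 0.719). A change of 2-fold in either direction lies outside all 3 intervals. None of the 7 sirtuins passed in any of the 3 comparisons, nor under any of the 18 alternative fits, and their median log2 fold change was 0.055, 0.11 and -0.0084 at 18 against 2, 24 against 2 and 24 against 18 months. Sirt3 overlaps Ric8a and Psmd13 on the other strand, with 351 to 2218 and 324 to 2567 counts per library, so that its counts are less certain.

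Nnmt (ENSMUSG00000032271, chromosome 9 at 48591877 to 48605153), which methylates nicotinamide and so takes it out of salvage, had 10 to 73 counts per library. It was at 0.896, 0.653, 0.609 and 1.31 CPM at 2 months, 1.35, 2.02 and 1.59 CPM at 18 months and 1.12, 2.08 and 0.931 CPM at 24 months. The 18 month samples lay above the 2 month samples in CPM, though not in TPM, and the 24 month samples overlapped both. With Cd38 and Bst1 it was 1 of 3 members above without overlap at 18 months against 2 months, where 13.7% of all genes were, and at 24 months Cd38 was the only one, where 21.7% of all genes were. The log2 fold change of Nnmt was 0.92 at 18 months (SE 0.375, 95% interval 0.09 to 1.76, edgeR adjusted p = 0.133) and 0.66 at 24 months (edgeR adjusted p = 0.189, SE 0.374).

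**Figure D3:**
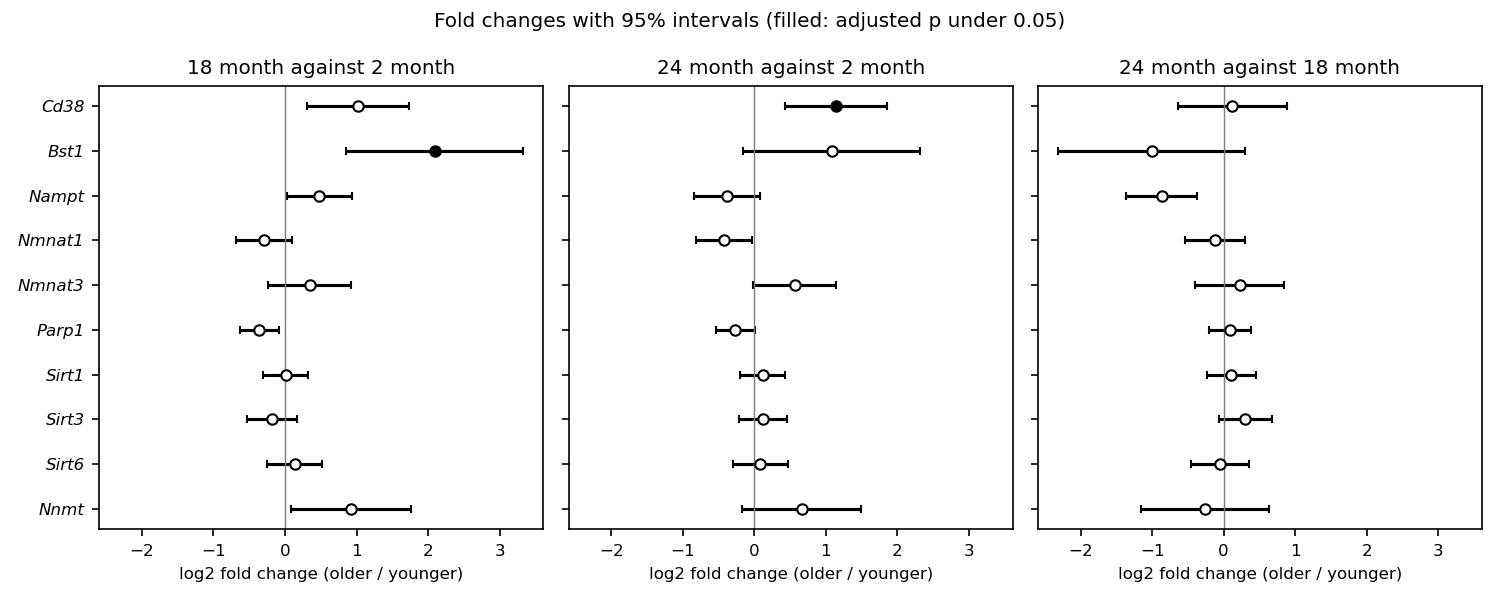
Log2 fold change of each gene (older over younger age, horizontal axis) with its 95% interval in the 3 comparisons; filled points passed an adjusted p of 0.05 over all genes tested. Bst1 at 18 months (2.09) and Cd38 at 24 months (1.15) are filled, and the intervals of Sirt1, Sirt3 and Sirt6 include 0 in all 3 comparisons.

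Scaled to exonic length, as transcript abundance (TPM), the members spanned a wide range. At 2 months Parp1 stood at 123 ± 14.1 TPM and Nampt at 75.5 ± 16.5 TPM (SD, n = 4), without overlap. Sirt6 (25.6 ± 3.78), Sirt1 (22.6 ± 4.89) and Nmnat1 (17.8 ± 0.477 TPM) followed, and Sirt1 overlapped both others. Sirt3 (9.68 ± 1.10) and Cd38 (7.99 ± 0.357 TPM) came next without overlapping each other, then Nmnat3 (3.01 ± 0.928), Nnmt (1.85 ± 0.771) and Bst1 (0.831 ± 0.395 TPM), in which each neighbour overlapped the next. At 24 months Cd38 stood at 20.8 ± 4.01 TPM, above Sirt3 at 12.4 ± 3.03 TPM (SD, n = 3) in every sample. At 18 months Nampt (116 ± 18.1 TPM) and Parp1 (106 ± 14.5 TPM) overlapped.

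The members also differed in how far they varied. Over the 10 samples the highest CPM was 1.51 to 1.66 times the lowest for Sirt1, Sirt6, Parp1 and Sirt3, 1.78 times for Nmnat1, 2.45 and 2.46 times for Nmnat3 and Nampt, 3.41 times for Nnmt, 3.84 times for Cd38 and 17.3 times for Bst1. Within ages the coefficient of variation of Cd38 was 11.5% at 2 months, 56.0% at 18 months and 22.6% at 24 months. That of Parp1 was 4.83%, 11.2% and 14.8%.

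The genes most like Cd38 over the 10 samples were those with the smallest root mean square difference of log2 CPM, each gene centred on its own mean, among 12385 genes of at least 5 CPM on average. They were Dok2, an adaptor of receptor signalling in blood cells (0.207), C130012C08Rik (0.2365) and Spred3, of a family that restrains Ras signalling (0.253). Leng8 (0.253) and Sh3tc1 (0.2565) followed. Over all genes compared the median was 0.711 and the 1st percentile 0.376, and the way the genes named were chosen places them under both. Dok2 was at 3.85 CPM on average at 2 months, 6.12 at 18 months and 7.54 at 24 months. Its highest 18 month value, 8.28 CPM, was in the summed sample, a likeness to Cd38 that the way these genes were chosen favours. Bst1, whose mean was under 5 CPM at every age and which was thus not among the genes compared, had a difference of 1.02 to Cd38.

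The rest of the pathway was described with 8 lists of NAD genes, whose counts stand beside 19.2% of all genes called higher and 15.8% called lower at 24 months against 2 months, and 6.04% and 5.51% at 18 months against 2 months. In the breakdown of nicotinamide and NAD, 4 of 7 genes rose at 24 months and 3 at 18 months against 2 months, and none fell (median log2 fold change of the list 1.04 and 0.94). With 1 sample left out the counts were 2 to 4 and 1 to 4. Aox3, an aldehyde oxidase of the kind that oxidises methylated nicotinamide, rose to 44.7 ± 17.8 CPM at 24 months, against 8.52 ± 0.784 CPM at 2 months (SD, n = 3 and 4). Its log2 fold change was 2.39 (edgeR adjusted p = 0.00138, SE 0.246), and at 18 months it was 2.04 (edgeR adjusted p = 0.00829, SE 0.245). Aox1, its paralogue, was at 110 ± 28.2 CPM at 24 months, against 33.75 ± 2.71 CPM at 2 months (log2 fold change 1.71, edgeR adjusted p = 0.00207).

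Nt5e and Enpp1, surface enzymes that act on nucleotides outside the cell, also rose, Nt5e with a wide spread. Nt5e (CD73), which takes the phosphate off AMP, was at 6.41, 10.8, 3.49 and 8.40 CPM at 2 months, 140, 40.1 and 11.7 CPM at 18 months and 13.3, 20.1 and 90.8 CPM at 24 months. All older samples lay above all 2 month samples. The log2 fold change was 3.14 at 18 months (edgeR adjusted p = 0.0476, SE 0.873) and 2.50 at 24 months (edgeR adjusted p = 0.0468, SE 0.858). Enpp1, a pyrophosphatase that can split NAD, was called at 24 months (log2 fold change 1.04, edgeR adjusted p = 0.0475).

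In the list for NAD synthesis from tryptophan 4 of 7 tested genes rose at 24 months against 2 months and 1 at 18 months, and none fell, all at low levels (median log2 fold change of the list 1.65 and 0.82). With 1 sample left out the counts were 1 to 4 and 0 to 2. Haao, the dioxygenase that makes the precursor of quinolinic acid, was at 1.39 ± 0.587 CPM at 24 months, against 0.3205 ± 0.063 CPM at 2 months (log2 fold change 2.10, edgeR adjusted p = 0.0055, SE 0.396). Its log2 fold change at 18 months was 1.99 (edgeR adjusted p = 0.0185, SE 0.4). Qprt, which turns quinolinic acid into a nicotinic acid nucleotide, had a log2 fold change of 2.33, Kynu, kynureninase, 2.29 and Tdo2, the first enzyme of the route, 0.98 at 24 months (edgeR adjusted p = 0.0262, 0.0355 and 0.0355).

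In the salvage and nicotinic acid list 2 of 8 tested genes rose at 24 months and none at 18 months (median log2 fold change of the list -0.22 and 0.12), a share near that of all genes. With 1 sample left out 1 to 2 rose at 24 months and 0 to 1 at 18 months, and at 24 months 0 to 1 fell. Naprt, the first enzyme of NAD synthesis from nicotinic acid, was at 15.5, 17.5 and 19.8 CPM at 24 months, against 9.96, 11.4, 11.6 and 10.8 CPM at 2 months (log2 fold change 0.69, edgeR adjusted p = 0.0122, SE 0.163). Nmnat2, the cytosolic counterpart of Nmnat1 best known from neurons, had a log2 fold change of 1.55 (edgeR adjusted p = 0.021), with 8.43 CPM in 24 month replicate 3 and 2.42 to 2.61 CPM in the others. That replicate also held the most oviduct marker RNA, whose part in the value was not tested. Without it, without 2 month replicate 1 or with the replicate block the call was lost (highest edgeR adjusted p = 0.071).

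Of the genes that lead from NAD to other pools, Nadk and Slc25a51 were lower. Nadk, the cytosolic kinase that turns NAD into NADP, fell to 230.3 ± 68.4 CPM at 24 months, against 457 ± 62.7 CPM at 2 months (log2 fold change -0.99, edgeR adjusted p = 0.00806, SE 0.209). At 18 months it fell to 274 ± 36.1 CPM (log2 fold change -0.74, edgeR adjusted p = 0.0485, SE 0.207). Slc25a51, the carrier of NAD into mitochondria, fell at 24 months (log2 fold change -0.62, edgeR adjusted p = 0.0282). They were the 2 of 5 genes of their list called at 24 months (median log2 fold change of the list -0.62, and 0.22 at 18 months), and 1 to 3 were with 1 sample left out. Corpus luteum markers, summed over 6 genes, stood at 7464 to 23760 CPM at 2 months, 6406 to 13490 CPM at 18 months and 1680 to 5020 CPM at 24 months. None of these 6 was called at 18 months against 2 months, and 4 were called lower at 24 months. Other lists had lower calls too, at 18 and 24 months 10 and 10 of 10 oocyte markers and 3 and 4 of 8 granulosa cell markers. Of 7 theca and steroidogenic markers 0 and 1 were called lower, where 5.51% and 15.8% of all genes were. The part of these cells in the Nadk difference was not tested.

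Among 15 ADP-ribosyltransferases 5 rose and 1 fell at 24 months against 2 months, and 1 rose and 1 fell at 18 months (median log2 fold change of the list 0.086 and 0.043). The 18 month counts were near the shares of all genes, and with 1 sample left out 2 to 5 rose at 24 months and 0 to 3 at 18 months. Parp14, which attaches single ADP-ribose units and is induced by interferon, was at 67.3, 102 and 81.0 CPM at 24 months, against 31.2, 33.0, 48.7 and 26.8 CPM at 2 months (log2 fold change 1.26, edgeR adjusted p = 0.00769, SE 0.26). Parp10 was at 58.4 ± 6.25 CPM at 24 months, against 31.4 ± 4.11 CPM at 2 months (log2 fold change 0.90, edgeR adjusted p = 0.00439, SE 0.157), and Parp4, a part of vault particles, had a log2 fold change of 0.52 (edgeR adjusted p = 0.0213). Parp9 and Parp12 were the other two, named after their values were seen, with log2 fold changes of 0.66 and 0.52. Tnks, a tankyrase that acts in Wnt signalling and at telomeres, fell to 144 ± 5.53 CPM at 24 months, against 214 ± 21.6 CPM at 2 months (log2 fold change -0.57, edgeR adjusted p = 0.005, SE 0.105). Of 4 genes that remove ADP-ribose, Macrod2 fell at 24 months (log2 fold change -1.02, edgeR adjusted p = 0.0196).

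**Figure D4:**
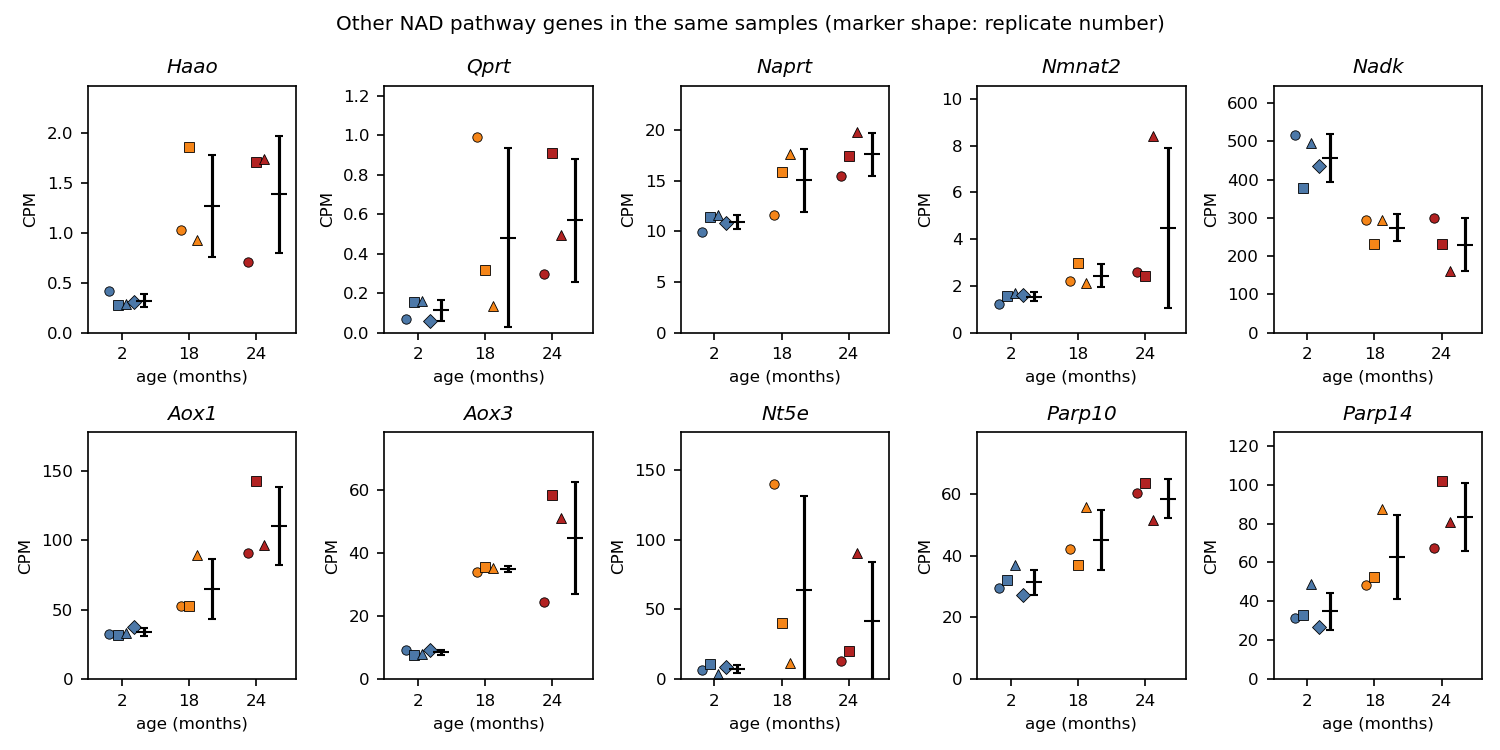
CPM (vertical axis, from 0) of 10 pathway genes outside the chosen set in every sample at 2, 18 and 24 months; shapes give the replicate number and bars the mean and SD, cut at 0 for Nt5e. Aox3 lies between 7.77 and 9.22 CPM at 2 months and between 24.6 and 58.4 CPM at 24 months, and Nadk is the one gene shown that is lower at the older ages.

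No gene of the 8 lists was called between 24 and 18 months. At 24 months against 2 months the calls of Aox1, Aox3, Haao, Naprt, Nadk, Tnks, Parp10 and Parp14 held in every alternative fit, and at 18 months against 2 months that of Aox3 did. Each other call of a pathway gene outside the 10 members was lost when at least 1 sample was left out. These were any 2 or 18 month sample or 24 month replicates 2 and 3. Over all alternative fits the highest adjusted p of these calls was 0.0649 to 0.274 (edgeR or DESeq2). Several were also lost to processing choices. The call of Nadk at 18 months was lost with DESeq2 size factors, library totals alone or the replicate block. That of Slc25a51 was lost with library totals, the block or only the 2 ages compared. Those of Nt5e and Enpp1 were lost without a filter on low counts and with the block.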

How the data were processed

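Per the labels' protocols, libraries of whole ovaries came from a stranded mRNA kit. The authors deposited unnormalized counts for each gene in each library. FastQC, cutadapt, STAR and HTSeq are the tools, and mm10 the build, that the submitters' processing notes name. Versions, annotation release and strand setting were not given in the sources used here. Samples were grouped by age from their titles, and 18 month replicates 3 and 4 were summed. Genes were kept by filterByExpr, scaled by TMM and tested two-sided with edgeR 4.0.16 in R 4.3.3 (glmQLFit, robust, 3 ages in 1 fit, 7 residual degrees of freedom), called at an adjusted p of 0.05. An SE is the log2 fold change over the square root of F. CPM use TMM factors, and TPM use exonic lengths from GENCODE M21, in which 54165 of the 54232 IDs were found.

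Members, lists and the summing were chosen with earlier results of these data known. Named were all members, per list up to 4 called genes of smallest adjusted p, and the 5 genes most like Cd38. The tryptophan, salvage and marker lists include genes that did not pass the filter, and Adprs matched no row. Nnt has 2 IDs, of which the one with more counts was used. On simulated counts the test called 38, 37 and 28 of 100 genes changed 2-fold, and 80, 76 and 70 of 100 changed 4-fold, at 18 against 2, 24 against 2 and 24 against 18 months, with 4, 5 and 7 unchanged genes called. Only 100 genes of each fold were changed, while 2349, 7120 and 1 genes were called in the data. The adjusted threshold depends on how many genes change, so these rates need not hold for the data. Deviations of same-numbered samples correlated at 0.3885, 0.2795 and 0.147 between 24 and 18 months, and at -0.113 to 0.063 in the other comparisons. Differently numbered samples of 24 and 18 months correlated at up to 0.135 (24 month replicate 3 with 18 month replicate 2). The labels do not say what same-numbered samples share. The main fit had no replicate block, so its SEs and p-values leave out any pairing, and the block was run only as an alternative.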

Additional observations from a re-analysis of the deposited data

How the results depend on the processing

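The 30 member results were recomputed under 18 alternatives: scaling by DESeq2 size factors or by library totals, a stricter filter or none, a replicate block, 11 separate libraries, the DESeq2 Wald test, only the ages compared, and leaving out each of 10 samples. At 18 against 2 months 1 member was called, against 0 with the replicate block, 3 with 11 libraries, 3 with DESeq2 and 0 to 1 with a sample left out (the block gave Bst1 1.70 and adjusted p = 0.0519 by edgeR). At 24 against 2 months it was 1, against 0 with the block, 2 with DESeq2 and 0 to 1 with a sample left out (the block gave Cd38 1.17 and adjusted p = 0.0616 by edgeR). At 24 against 18 months it was 0, and 1 with DESeq2. The block treats same-numbered samples as paired, and it changed no member call at 24 against 18 months. In none of the comparisons do the labels name anything but the number that such samples share. Signs turned for values near 0. Sirt1 at 18 against 2 months was -0.015 without a filter and -0.0936 to 0.1038 with a sample left out. Sirt6 at 24 against 2 months was -0.0592 to 0.2405 with a sample left out, and at 24 against 18 months 0.0315 with library totals and -0.2005 to 0.0968 with a sample left out. Cd38 at 24 against 18 months was -0.0946 with 11 libraries and -0.1539 to 0.6672 with a sample left out. Over all genes, calls went from 2349 to 1034 with the block, 4000 with 11 libraries, 4052 with DESeq2 and 375 to 2748 with a sample left out at 18 against 2 months, from 7120 to between 4283 and 7467 with a sample left out at 24 against 2 months, and from 1 to 194 with DESeq2 and 0 to 2 with a sample left out at 24 against 18 months. Library totals alone moved the median log2 fold change of all genes at 24 against 2 months to 0.22, against 0.033, and at 24 against 18 months to 0.12, against 0.026. The share of calls that were higher was then 73.0%, against 54.9%, at 24 against 2 months and 66.7%, against 52.3%, at 18 against 2 months. The cause was not tested. Bst1, Nnmt and the tryptophan genes had few counts, which limits what can be seen for them.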

Other observations

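Pathway genes that no comparison called also varied widely between samples of one age, and they are given here after their values were seen. Nmrk1, the kinase that makes NMN from nicotinamide riboside, was at 33.96, 15.2, 65.8 and 16.2 CPM at 2 months, 53.5, 14.8 and 9.28 CPM at 18 months and 17.2, 18.5 and 11.7 CPM at 24 months. Samples of high and low level occurred at 2 and at 18 months. Kmo, the hydroxylase of kynurenine, stood at 21.6 CPM in 24 month replicate 1, against 0.655 to 7.025 CPM in all other samples. Mast cell markers were highest in the same replicate, at 161 CPM, against 71.3 and 2.28 CPM in 24 month replicates 3 and 2, where Kmo was at 1.89 and 1.68 CPM. Adipocyte markers at 99.5 CPM and NK cell markers at 9.52 CPM were also the highest of all samples in 24 month replicate 1. The part of these cells in the Kmo level was not tested.

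Sirt2, the sirtuin with the most counts in every sample, was at 107, 93.4, 126 and 89.95 CPM at 2 months, 114, 102 and 96.2 CPM at 18 months and 96.2, 102 and 92.6 CPM at 24 months. The ages overlapped.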
